A study of Mus musculus with 6 samples.

Results

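Shcbp1 and 8 genes of the central spindle and of cytokinesis were examined on 6 arrays of sorted mouse blood stem cells. The cells came from beta-catenin floxed mice and from controls. The 9 genes were Shcbp1, Kif23, Racgap1, Ect2, Prc1, Anln, Kif20a, Cit and Kif14, and all 9 were among the 14586 genes tested. Shcbp1 was chosen by its measured value, because its gene value stood among the largest differences between the same 2 groups of arrays, so its difference is given as a description without a test. The other 8 were chosen by their known part in cell division, and are called its partners.

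The cells were sorted from bone marrow by the gate KLSCD34-, which the labels call stem cells. The 6 arrays were 3 of beta-catenin floxed, Vav-Cre positive mice, called floxed, and 3 controls, whose alleles and Cre status the labels do not give. Vav-Cre drives recombination in blood-forming cells, not in stem cells alone. Age, sex and strain are not given in the sources used here, nor is it stated whether a replicate was 1 animal or a pool, so p-values describe how far these samples lie apart, and that spread may be technical. On a platform of this kind several short probe sets lie along each gene. The values are taken as log2, and no detection calls were used, so a dim probe set cannot be shown to lie above background.

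A dividing cell builds the central spindle from antiparallel microtubules between the separating chromosomes, and this structure tells the cell where to place the cleavage furrow. The protein of Prc1 bundles these microtubules, and the centralspindlin complex of Kif23 and Racgap1 binds them and recruits Ect2, which activates the small GTPase RhoA and so the contractile ring. Shcbp1 encodes a protein first known for binding the adaptor SHC1; in human cells it binds centralspindlin at the midbody, and its Drosophila relative Nessun dorma is needed for cytokinesis in male germ cells. Blood stem cells of adult mice divide rarely, and transcripts of these genes are made mainly in G2 and mitosis.

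Many G2 and mitosis genes carry in their promoters a CHR element, the binding site of the DREAM and B-MYB-MuvB complexes, with a CCAAT box upstream. RefSeq promoter sequences (GRCm38.p6, 250 bases before to 50 after the start) were matched for 7 of the 9 members, all but Shcbp1 and Kif20a. The letters searched were TTTGAA for the CHR and CCAAT, each on both strands, and no match of one overlapped a match of the other in the 7 members. TTTGAA stood in 6 of 7 members, in 25 of 39 genes of a list of mitosis and G2/M genes (64.1%) and in 18.1% of 27025 genes in the table. Both motifs stood in 5 of 7 members, in 56.4% of the list and in 7.12% of the table, in any order. In Kif14, 1 of these 5, TTTGAA lay at position −228 and CCAAT downstream of it, not upstream. Ect2 and Prc1 each had 2 start sites, of which the first listed was used. Anln had TTTGAA alone and Cit had neither in its window. The promoters of both centralspindlin genes and of Prc1, the microtubule bundler, are shown because in all 3 TTTGAA lies beside the start site, its first base at position 3 for Kif23, 6 for Racgap1 and −5 for Prc1, counted from 1 at the start site. Capitals mark the 2 motifs, and a match is not by itself a bound site.
Kif23, chr9:61946750-61947049, minus strand: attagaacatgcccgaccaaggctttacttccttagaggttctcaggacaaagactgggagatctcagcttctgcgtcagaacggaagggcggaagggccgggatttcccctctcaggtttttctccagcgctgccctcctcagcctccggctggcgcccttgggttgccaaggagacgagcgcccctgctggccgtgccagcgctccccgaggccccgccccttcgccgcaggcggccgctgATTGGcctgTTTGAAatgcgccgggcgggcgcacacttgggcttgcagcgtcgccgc
Racgap1, chr15:99651607-99651906, minus strand: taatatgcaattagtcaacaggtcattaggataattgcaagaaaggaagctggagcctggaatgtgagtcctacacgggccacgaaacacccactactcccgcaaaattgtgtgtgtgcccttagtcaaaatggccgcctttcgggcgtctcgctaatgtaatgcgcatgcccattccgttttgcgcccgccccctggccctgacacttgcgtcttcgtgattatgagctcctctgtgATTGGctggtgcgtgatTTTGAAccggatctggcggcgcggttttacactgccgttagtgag
Prc1, chr7:80294201-80294500, plus strand: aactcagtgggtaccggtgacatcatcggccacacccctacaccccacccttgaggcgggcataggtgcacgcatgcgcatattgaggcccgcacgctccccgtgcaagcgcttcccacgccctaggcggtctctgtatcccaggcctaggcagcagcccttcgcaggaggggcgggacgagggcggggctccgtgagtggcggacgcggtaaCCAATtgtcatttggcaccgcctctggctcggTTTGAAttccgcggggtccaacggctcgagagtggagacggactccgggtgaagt

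As a check of the genotype, 5 of the 16 kept probe sets of Ctnnb1, the gene of beta-catenin, were lower in floxed arrays (limma, adjusted p under 0.05), with log2 differences from −6.90 to −2.51. These were the only calls among 120788 kept probe sets (0.00414%). No gene passed at gene level (0 of 14586, 0%; limma), Ctnnb1 included (−0.88 log2, SE 0.14, adjusted p = 0.667). Ctnnb1 passed with the mean of its probe sets (−1.64 log2, adjusted p = 0.000269 in limma) and with array weights (−1.03, adjusted p = 0.0052), and was −0.16 with a filter at the 75th percentile and −0.24 with centred probe sets. In all, 540 genes had an unadjusted p under 0.05, and array weights gave 404 calls. Arrays correlated at 0.962 to 0.972 among floxed and at 0.880 to 0.934 among controls, across genes, which are not independent replicates. Mean levels of stem cell markers were 10.24 to 10.46 log2 in floxed arrays and 10.12 to 10.52 in controls (6 of 7 genes measured). Cd34 averaged 12.65 log2 in floxed arrays and 12.68 in controls, although the gate is for absence of surface CD34.

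Shcbp1 signal was higher in floxed arrays on each of its 12 probe sets by the group means, but the groups overlapped on 8 of them. In bulk samples such as these, more cells of a type and more RNA per cell cannot be told apart. The table held 12 probe sets of Shcbp1, and 5 of them had a mean over the 6 arrays at or above 7.60 log2, the median of all probe sets, and were kept. In order of probe-set number these are the fifth, the sixth, the tenth, the eleventh and the twelfth. The eleventh had 9.47, 9.56 and 9.25 log2 in floxed arrays and 8.31, 8.26 and 7.52 log2 in controls. The lowest floxed array thus lay above the highest control, and the difference of the means was 1.39 log2, the largest among the 12. The sixth had 10.00, 9.88 and 9.44 log2 in floxed arrays and 9.35, 9.30 and 9.21 log2 in controls, again without overlap, with a difference of 0.49.

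The other 3 kept probe sets overlapped. The fifth had 8.68, 7.97 and 8.16 log2 in floxed arrays and 8.30, 7.59 and 7.54 log2 in controls (difference 0.46). The twelfth had 9.05, 9.22 and 9.23 log2 in floxed arrays and 9.23, 8.76 and 8.74 log2 in controls (difference 0.26). Control replicate 1 lay within the floxed range on the fifth and was, by a margin under the second decimal, the highest of the 6 arrays on the twelfth. The tenth had 8.21, 8.19 and 7.41 log2 in floxed arrays and 7.67, 7.81 and 7.74 log2 in controls (difference 0.20), and there floxed replicate 3 was the lowest of the 6 arrays.

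The 7 probe sets below the filter had differences from 0.13 to 1.24 log2. The second of Shcbp1 had 6.33, 4.86 and 5.90 log2 in floxed arrays and 4.58, 4.84 and 3.95 log2 in controls. The fourth had 7.31, 7.44 and 7.12 log2 in floxed arrays and 6.75, 5.58 and 6.59 log2 in controls. These are the only 2 of the 7 without overlap, and on the second the gap between floxed replicate 2 and control replicate 2 was small. On the seventh, floxed replicate 2 had 4.05 log2 and lay among the controls (4.10, 4.16 and 4.01), while floxed replicates 1 and 3 had 5.70 and 5.06. In all, 4 of 12 Shcbp1 probe sets were higher without overlap, where 5.23% of all 212097 one-gene probe sets were; among kept ones it was 2 of 5, where 6.36% were. Shcbp1 was chosen by this contrast, so nothing is read from these shares.

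**Figure D1:**
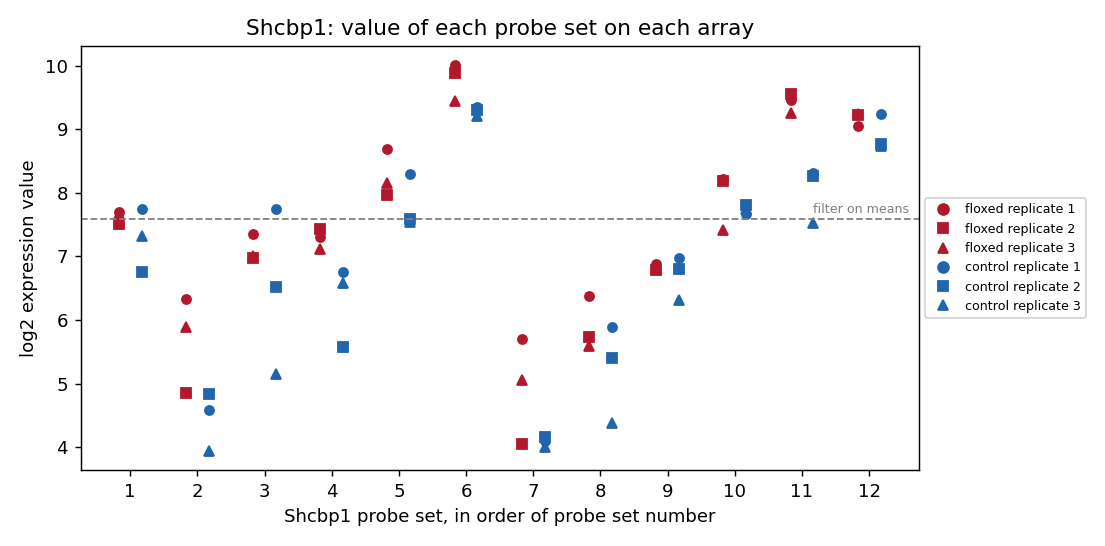
Log2 value (vertical axis) of each of the 12 Shcbp1 probe sets (horizontal axis, in order of probe-set number) on each array; red marks are the 3 floxed and blue marks the 3 control arrays, and the dashed line is the filter at 7.60 log2. The eleventh probe set has the widest gap between the groups, and on the tenth and the twelfth the groups overlap.

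The gene value of Shcbp1 differed by more than the signal of 4 of its 5 kept probe sets. As the median over the kept probe sets of an array, the gene value was 9.05, 9.22 and 9.23 log2 in floxed arrays and 8.31, 8.26 and 7.74 log2 in controls, with means of 9.17 ± 0.10 and 8.11 ± 0.32 (SD, n = 3 each). The log2 difference was 1.06 (SE 0.18), rank 3 from the top of 14586 genes, which is the value that singled Shcbp1 out. In the 3 floxed arrays this median fell on the twelfth probe set, in control replicates 1 and 2 on the eleventh and in control replicate 3 on the tenth. The difference therefore set different probe sets against each other.

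When each probe set was first centred on its own mean over the 6 arrays, the Shcbp1 difference was 0.57 log2 (SE 0.13), about as much as with the mean of the kept probe sets (0.56, SE 0.16). Its rank was then 46 and 47 of 14586. Over all 12 probe sets the centred median gave 0.53 (SE 0.17), and the plain median gave 0.28 (SE 0.24), on which control replicate 1, at 7.71 log2, was the highest of the 6 arrays. The plain median over all probe sets is the only one of these 5 summaries in which the groups overlapped. Centring was chosen after seeing the data. The plain and the centred median of the kept probe sets differed by 0.49 log2 for Shcbp1, a gap that 9 of 14586 genes reached, Shcbp1 included, against a median gap of 0.034 over all genes. Among the 7873 genes with at least 5 kept probe sets, 3 had so large a gap.

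**Figure D2:**
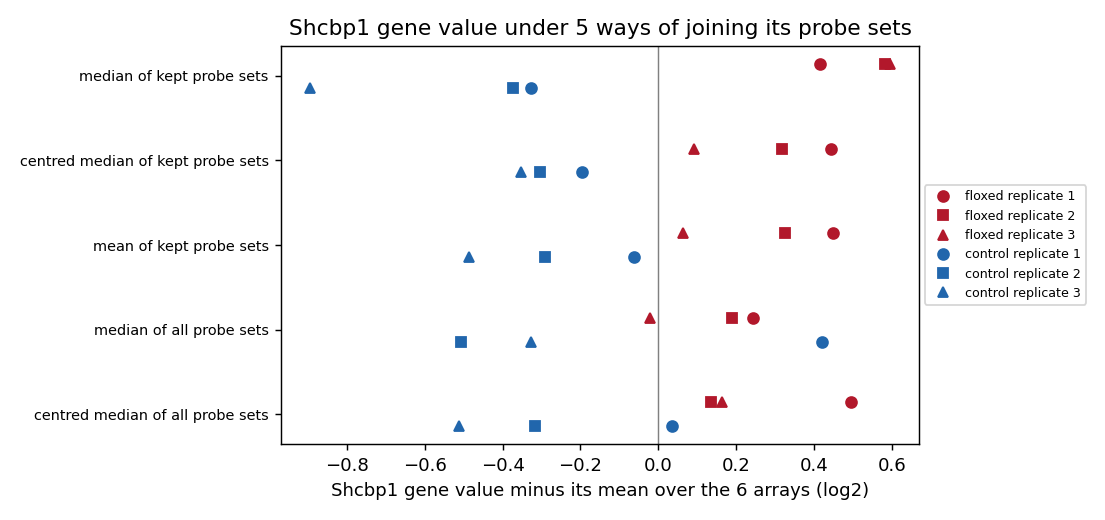
Shcbp1 gene value on each array minus its mean over the 6 arrays (horizontal axis, log2) under 5 ways of joining the probe sets (rows); red marks are floxed and blue marks control arrays. The distance between the groups is widest for the plain median of the kept probe sets (1.06), and control replicate 1 lies above all floxed arrays for the plain median of all probe sets.

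None of the 8 partners passed the test of the difference between the groups, where 0 of all 14586 genes did. Their log2 differences lay between −0.06 and 0.14, 5 above and 3 below 0, and 0 of 8 passed (limma, adjusted p = 0.999 for each). In limma 0 of 8 had an unadjusted p under 0.05, where 3.70% of all genes did. The median was 0.07 log2, beside 0.02 over all genes, of which 54.2% were above 0. The 95% confidence intervals of the 8 lay between −0.41 and 0.52 log2. With centred probe sets all 8 were above 0, between 0.02 and 0.23 log2 with a median of 0.09, beside 0.57 for Shcbp1, and the mean of the probe sets also put all 8 above 0, so the direction of Racgap1, Ect2 and Kif14 turned with the summary. The groups overlapped for all 8, where 5.57% of genes were higher and 2.87% lower without overlap.

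Centralspindlin and its activator of RhoA came out on both sides of 0. Kif23, the kinesin subunit, had 9.81, 10.13 and 9.81 log2 in floxed arrays and 10.06, 9.77 and 9.64 log2 in controls (difference 0.09, SE 0.16). Racgap1, the GTPase-activating subunit to which human SHCBP1 binds, had 9.13, 9.09 and 9.38 log2 in floxed arrays and 9.03, 9.41 and 9.20 log2 in controls (−0.01, SE 0.16). In both the groups were interleaved. Ect2, the RhoA exchange factor, had 9.93, 9.86 and 9.88 log2 in floxed arrays and 10.02, 10.00 and 9.83 log2 in controls (−0.06, SE 0.13). Its floxed arrays lay close together, between the control arrays.

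Prc1 had 9.66, 9.59 and 9.72 log2 in floxed arrays and 9.56, 9.64 and 9.34 log2 in controls. Its difference, 0.14 log2 (SE 0.14), was the largest of the 8, and control replicate 2 lay within the floxed range. By the mean of its kept probe sets, the 3 floxed arrays (9.60, 9.54 and 9.67 log2) all lay above the controls (9.39, 9.54 and 9.15), the lowest floxed above the highest control by less than the second decimal shows. The plain median of all 17 Prc1 probe sets gave 0.54 log2 (SE 0.17), above the 0.28 (SE 0.24) of Shcbp1 by the same summary. The centred median of all probe sets gave 0.28 (SE 0.13) for Prc1, beside 0.53 (SE 0.17) for Shcbp1. None of these Prc1 differences passed in limma.

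The motors and scaffolds showed the same overlap. Kif20a, the kinesin that carries the chromosomal passenger complex to the central spindle, had 9.31, 9.41 and 9.41 log2 in floxed arrays and 9.62, 9.32 and 9.01 log2 in controls (0.06, SE 0.17). Kif14, a kinesin that binds PRC1 and citron kinase, had 8.35, 8.39 and 8.28 log2 in floxed arrays and 8.53, 8.45 and 8.17 log2 in controls (−0.04, SE 0.17). For both, control replicate 1 was the highest and control replicate 3 the lowest of the 6 arrays. Anln, the scaffold anillin of the contractile ring, had 9.52, 9.23 and 9.16 log2 in floxed arrays and 9.51, 9.37 and 8.81 log2 in controls (0.07, SE 0.20). Cit, citron kinase of the midbody, had 9.09, 9.01 and 8.99 log2 in floxed arrays and 9.16, 9.02 and 8.53 log2 in controls (0.13, SE 0.18).

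Control replicate 3 was the lowest of the 6 arrays for 7 of 8 partners and for Shcbp1, and control replicate 1 the highest for 4 of 8. Averaged over the 8, the deviation from each gene's own mean was 0.04, 0.02 and 0.01 log2 in floxed arrays and 0.12, 0.06 and −0.25 log2 in controls. For Shcbp1 it was 0.42, 0.58 and 0.59 log2 in floxed arrays and −0.33, −0.37 and −0.89 log2 in controls. This order of the partner average comes from the plain median, and single partners departed from it: control replicate 1 lay below all floxed arrays for Racgap1 and Prc1. Without control replicate 3, 3 of 8 partners were higher in floxed arrays with a median of −0.08 log2, and Shcbp1 had 0.88. Without control replicate 1 the partner median was 0.21.

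**Figure D3:**
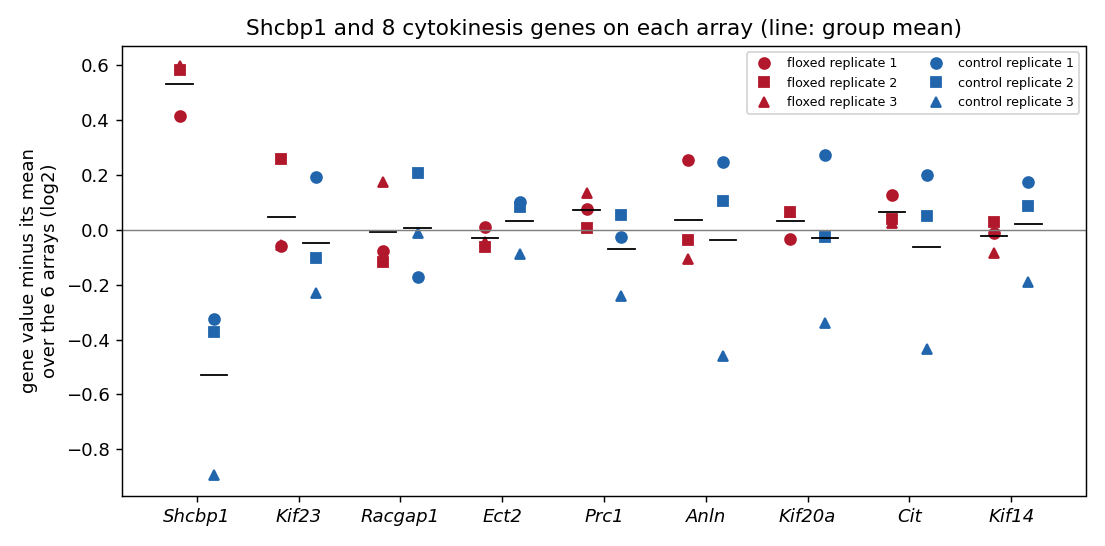
Gene value on each array minus its mean over the 6 arrays (vertical axis, log2) for Shcbp1 and its 8 partners (horizontal axis); red marks are floxed, blue marks control arrays, and black lines the group means. The floxed and control arrays separate for Shcbp1 and overlap for all 8 partners, of which 7 have their lowest value on control replicate 3.

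Across single probe sets the partners leaned to the higher side. Of their 162 kept probe sets, 115 (71.0%) were higher in floxed arrays by the group means, beside 58.9% of all 110361 kept one-gene probe sets, with a median difference of 0.11 against 0.05. Probe sets of 1 gene share its transcripts and are not independent. Of the 162, 10 (6.17%) were higher without overlap, near the 6.36% of all kept one-gene probe sets, and 1 was lower, where 2.96% of all were. In limma 0 of 162 passed (smallest adjusted p = 0.975), and 5 had an unadjusted p under 0.05, where 4.35% of all kept probe sets did. With 1 array left out, the count of 10 became 12 to 44; the lowest, 7.32% without control replicate 3, stood beside 8.64% of all kept one-gene probe sets, and the highest, 27.0% without control replicate 1, beside 21.9%. With all arrays, the 10 were 6 of Cit, 2 of Prc1 and 1 each of Anln and Kif23. The 1 lower probe set was of Ect2, with 9.68, 9.81 and 9.55 log2 in floxed arrays and 9.96, 10.04 and 9.91 log2 in controls.

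By gene, 9 of 10 kept Prc1 probe sets were higher, 17 of 21 of Kif23, 16 of 20 of Anln, 8 of 11 of Racgap1, 15 of 21 of Kif14, 27 of 40 of Cit, 15 of 23 of Ect2 and 8 of 16 of Kif20a. Kif20a was thus the most evenly divided. The 2 separate Prc1 probe sets had 8.70, 8.89 and 8.97 log2 in floxed arrays against 8.35, 8.44 and 7.98 log2 in controls, and 9.64, 9.03 and 9.18 log2 in floxed arrays against 8.89, 8.60 and 8.65 log2 in controls. Their differences, 0.60 and 0.57 log2, exceed those of 4 of the 5 kept Shcbp1 probe sets. Of the Cit probe sets without overlap, 2 that follow one another in number had 8.63, 8.36 and 8.52 log2 in floxed arrays against 6.98, 8.35 and 8.03 log2 in controls, and 8.94, 8.61 and 8.60 log2 in floxed arrays against 7.85, 8.31 and 7.65 log2 in controls. The Cit and Prc1 probe sets were picked here after their values were seen.

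**Figure D4:**
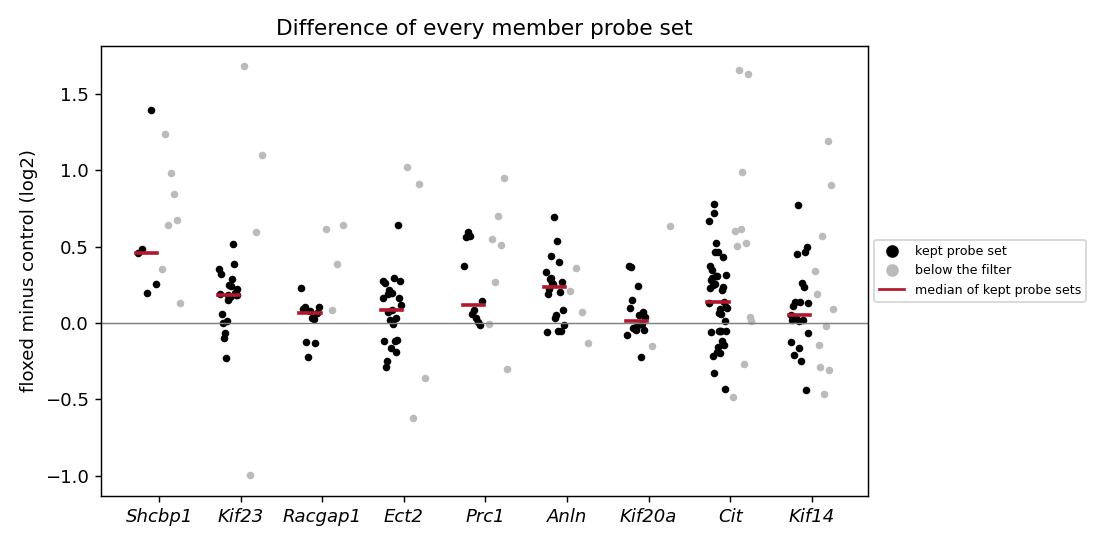
Floxed minus control difference of the group means (vertical axis, log2) of every probe set of the 9 members (horizontal axis); black dots are kept probe sets, grey dots those below the filter, and red lines the medians of the kept ones. All 12 Shcbp1 dots lie above 0, 4 of its 5 black dots lie within the range of the partners' black dots, and its 1.39 lies above all of these. Grey dots of Kif23 (up to 1.68) and of Cit (up to 1.66) lie above that 1.39.

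Within the groups, Shcbp1 was positively correlated with the partners on all 6 arrays together. No relation passed its test, which could hardly be passed with so few arrays. The sign turned for most of the relations without control replicate 3. The deviations from the group means were used, since the difference of the group means, by which Shcbp1 was chosen, is removed from them. They come from the same gene values, however. In controls the plain median of Shcbp1 fell on the tenth probe set in replicate 3 and on the eleventh in replicates 1 and 2. The control deviations thus also set different probe sets against each other. Pearson's r of Shcbp1 was positive with 8 of 8 partners, 0.90 with Kif20a, 0.88 with Kif14 and Cit, 0.83 with Prc1, 0.80 with Ect2, 0.71 with Anln, 0.66 with Kif23 and 0.10 with Racgap1, over 6 arrays. Spearman's rho ran from 0.60 to 0.83 for 7 of them and was −0.09 for Racgap1. None of the 8 relations passed an exact two-sided permutation test within groups, whose smallest possible p is 0.0278 (adjusted p from 0.370 to 0.917 for r and from 0.356 to 0.917 for rho, over 8 relations). A lone relation at that smallest p has an adjusted p of 0.222 over 8 relations in this test. The test therefore cannot show that a relation is absent. The smallest unadjusted exact p was 0.0556, for Kif20a.

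These r values stood beside a median of 0.26 over all 14585 other genes, of which 61.3% were positive, against a partner median of 0.81. Some lists of other genes also had high values with the plain median: the median r was 0.83 for granulocyte markers (7 of 7 positive), 0.91 for B cell markers (4 of 5) and 0.66 for mitosis and G2/M genes (41 of 45). The remaining lists were lower, from 0.58 for the chromosomal passenger complex and its regulators to 0.24 for SHC adaptor signalling. A list of the targeted and gate genes, Ctnnb1 among them, had −0.14. The 2 arrays farthest from the Shcbp1 median were control replicate 3 and floxed replicate 3. Without them, and with deviations taken anew from the remaining 4, r ran from −0.88 to 0.89 and was positive with 3 of 8 partners. With 2 arrays left in each group, the deviations of a group are equal and opposite. This r therefore cannot show on which arrays the relation rests. Without control replicate 3 alone, r was positive with 2 of 8 partners, with a median of −0.25. With centred probe sets r was positive with 6 of 8, with a median of 0.50 beside −0.02 over all genes, the highest being Ect2 (0.78), and it was negative for Racgap1 (−0.28) and Prc1 (−0.21). In that setting the exact p for Ect2 was the smallest possible, 0.0278 (adjusted p = 0.222).

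By r of the gene values over the 6 arrays, the 5 genes most like Shcbp1, among 8387 with a range of at least 0.5 log2 and leaving out predicted genes, were Rrp15 (0.991), Armt1 (0.989), Sem1 (0.989), Sars (0.986) and Cct8 (0.986). This r largely follows the difference between the groups, and the set was unstable: 0 to 3 of the 5 were named again under 13 alternatives. By r of the deviations within groups, with the plain median, they were Rnf41 (0.999), Fbrs (0.997), Gja1 (0.996), Rab43 (0.995) and Phlda3 (0.994). Of the partners only Anln, Kif20a and Cit reached the range of 0.5 log2 and could be named, and none of them was among either 5. The other partners were left out by that condition.

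Among 6 wider lists, with 128 of 132 genes tested, 0 genes passed over all genes (limma, smallest adjusted p = 0.999). With array weights 3 of the 128 did, Cdca8, Cdk1 and Foxm1, where 404 of all 14586 genes did. In the chromosomal passenger complex and its regulators, 9 of 12 genes were above 0, with a median of 0.18 log2. Cdca8 (borealin) had 0.54 (SE 0.21), Birc5 (survivin) 0.35 (SE 0.14), Incenp 0.19 (SE 0.18) and the kinase Aurkb 0.15 (SE 0.13). Birc5 averaged 9.26 ± 0.13 log2 in floxed arrays and 8.90 ± 0.09 log2 in controls (SD, n = 3 each), without overlap, and it was 1 of 3 of the 12 genes that were higher so, where 5.57% of all genes were. Plk1, which lets ECT2 bind centralspindlin, had −0.03 (SE 0.14) and the chromokinesin Kif4 had 0.17 (SE 0.24). Without control replicate 3 the list's median was 0.01. Over the alternatives Cdca8 ran from 0.045 (stricter filter on dim probe sets) to 0.79 (without control replicate 1), Birc5 from 0.18 (without floxed replicate 1) to 0.53 (no filter), Incenp from −0.0028 (without control replicate 3) to 0.37 (stricter filter), Aurkb from −0.012 (array weights) to 0.26 (without control replicate 2) and Kif4 from −0.070 (without control replicate 3) to 0.43 (without control replicate 1).

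In the mitosis and G2/M list 37 of 45 measured genes were above 0, with a median of 0.16 log2, beside 0.02 over all genes. Tacc3, a spindle protein, had 0.41 (SE 0.15), the cyclin-dependent kinase Cdk1 0.40 (SE 0.19), the proliferation marker Mki67 0.21 (SE 0.11) and topoisomerase Top2a 0.19 (SE 0.11). Mki67 averaged 11.15 ± 0.03 log2 in floxed arrays and 10.94 ± 0.07 log2 in controls (SD, n = 3 each) without overlap, and Top2a likewise did not overlap. In all, 7 of 45 were higher and 1 was lower without overlap, where 5.57% and 2.87% of all genes were. The list's mean deviations were 0.13, 0.06 and 0.04 log2 in floxed arrays and 0.15, −0.08 and −0.29 log2 in controls, so control replicate 1 was the highest of the 6 arrays and control replicate 3 the lowest. Without control replicate 3 the median was 0.06. Over the alternatives Cdk1 ran from 0.26 (without control replicate 3) to 0.65 (without control replicate 1), Mki67 from 0.11 (centred probe sets) to 0.27 (array weights) and Top2a from −0.0096 (stricter filter) to 0.24 (mean of the probe sets). The part of these genes in the Shcbp1 difference was not tested.

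The remaining lists lay near 0. RhoA and contractile ring genes had 10 of 17 above 0 and a median of 0.02 log2, with Rhoa at 0.05, the myosin gene Myh9 at 0.00 and Septin6 at −0.28 (SE 0.12). Midbody and abscission genes had 15 of 22 above 0 and a median of 0.08, with Cep55, which recruits the abscission machinery, at 0.38 (SE 0.19) and the ESCRT-III gene Chmp4b at 0.12. Regulators of G2 and mitosis transcription had 8 of 15 above 0 and a median of 0.01. Of these, Foxm1 had 0.44 (SE 0.18), Mybl2 −0.09 (SE 0.16) and the MuvB subunit Lin9 0.19 (SE 0.16). SHC adaptor signalling had 7 of 17 above 0 and a median of −0.03, with Shc1, whose protein binds SHCBP1, at 0.09 (SE 0.14), its partner adaptor Grb2 at 0.19 (SE 0.16), Sos1 at 0.34 (SE 0.21) and the Shcbp1 relative Shcbp1l at −0.15 (SE 0.19). Over the alternatives Cep55 ran from 0.26 (without control replicate 3) to 0.61 (without floxed replicate 3), Septin6 from −0.35 (without floxed replicate 3) to −0.039 (centred probe sets), Chmp4b from 0.051 (without control replicate 3) to 0.18 (without control replicate 1) and Lin9 from 0.13 (without control replicate 3) to 0.40 (no filter). Sos1 ran from 0.082 (stricter filter) to 0.46 (without control replicate 1), with 0.11 without control replicate 3 and 0.12 without control replicate 2, and Grb2 from 0.028 (stricter filter) to 0.35 (no filter).

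**Figure D5:**
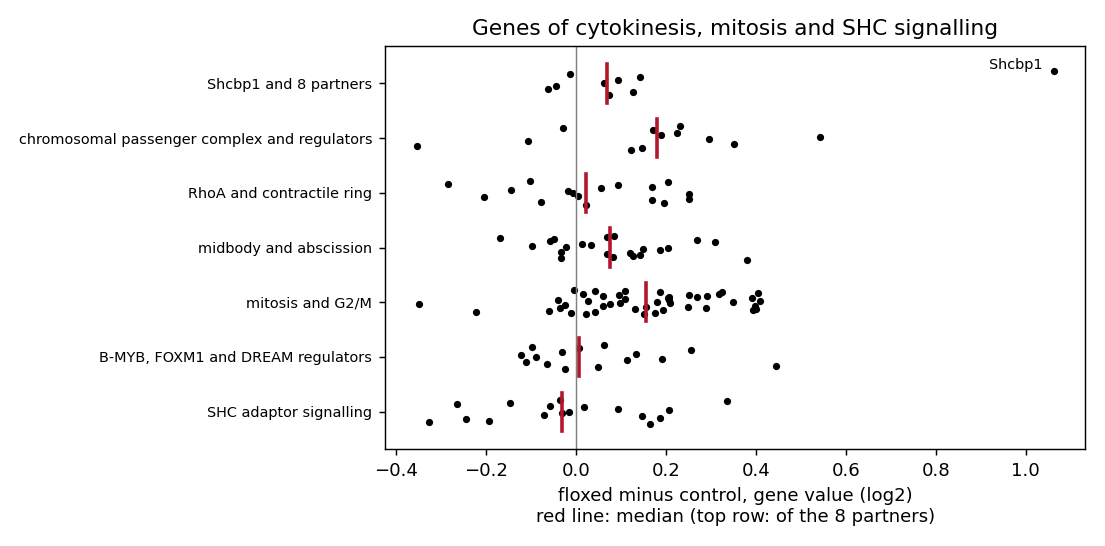
Floxed minus control difference of the gene value (horizontal axis, log2) of each gene in 7 groups of genes (rows); each dot is a gene and red lines are medians, in the top row over the 8 partners. By this plain median of the kept probe sets, which singled it out, Shcbp1, at 1.06, lies apart from the partners, which lie between −0.06 and 0.14. By the plain median of all probe sets, not shown here, Prc1 (0.54) lies above Shcbp1 (0.28).

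Markers of other blood cells also differed between arrays. Of the granulocyte list 0 of 7 measured genes were above 0 (median −0.58 log2), and the mean level of the list was 9.62, 9.68 and 10.51 log2 in floxed arrays and 10.82, 10.90 and 9.74 log2 in controls. It was thus lowest on floxed replicates 1 and 2 and on control replicate 3, whereas Shcbp1 was high on the first 2 and low on the last. Within the groups, the same genes followed the plain median of Shcbp1, with the median r of 0.83 given above. With centred probe sets the order of Shcbp1 in floxed arrays was reversed (0.47, 0.35 and 0.12 log2 in replicates 1, 2 and 3). The r of this list with centred probe sets is not given here. Erythroid markers had 0 of 4 above 0 (levels 9.32 to 9.86 log2 in floxed arrays and 9.65 to 9.97 in controls), B cell markers 3 of 5 (8.75 to 9.32 in floxed arrays and 8.10 to 9.63 in controls) and T and NK cell markers 1 of 5 (8.26 to 8.76 in floxed arrays and 8.67 to 8.76 in controls). None of these lists had a gene that passed in limma (smallest adjusted p = 0.999). With no detection calls, no marker can be called absent. Their part in the Shcbp1 difference was not tested.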

How the data were processed

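The values analysed were log2 expression values per probe set, as deposited by the authors for 6 arrays (241576 probe sets). The submitters' processing notes name MAS5; its role and version, and the normalization, are not given in the sources used here. Array medians lay between 7.56 and 7.65. Symbols came from the platform annotation, updated through a RefSeq table of GRCm38.p6; the array's own build is not given, so probe sets have no coordinates here. Probe sets with a mean under 7.60 were left out. Gene values were medians over a gene's kept probe sets, and limma 3.58.1 in R 4.3.3 (eBayes with trend, Benjamini-Hochberg over all genes or all kept probe sets, threshold 0.05) compared floxed with control arrays. Steps were tested on simulated data. Centred summaries, added after seeing the data, were fitted without the trend. Members and lists were chosen with earlier results of these data known. Named genes were the 9 members, Ctnnb1, 20 fixed list genes (Ccnb1 was not among the genes tested), the gene of smallest p in each wider list and the 5 most like Shcbp1. Alternatives were other normalizations, filters, summaries, eBayes settings, array weights, a replicate block and leaving out each array. Same-numbered replicates showed correlations of their deviations of 0.20, −0.0036 and −0.24, so the numbers were not taken to pair the arrays. Precision is limited by 3 arrays a group.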

Additional observations from a re-analysis of the deposited data

How the results depend on the processing

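The Shcbp1 difference was 0.28 log2 without the filter on dim probe sets, 0.49 with a filter at the 75th percentile, 0.56 with the mean of the probe sets, 0.57 with centred probe sets and 0.53 with these and no filter. The filter at the 75th percentile kept only its sixth probe set. The difference was always positive, but Shcbp1 was chosen by this contrast, so nothing is read from that sign. With that stricter filter, with the mean and with both centred settings 8 of 8 partners were higher, and 3 to 6 were when 1 array was left out. Positive within-group r was found for 5 partners without the filter and for 5 with the stricter one, and for 2 (without control replicate 3) to 8 with 1 array left out. Partner probe sets higher without overlap numbered 17 with no filter (8.13%, beside 5.23% of all one-gene probe sets), 3 with the stricter one (3.61%, beside 7.40%) and 12 to 44 with 1 array left out (7.32% to 27.0%, beside 8.64% to 21.9%). In limma 2 genes passed without the filter, 1 with the mean, 404 with array weights, 2 with centred probe sets and no filter and 0 to 2 (without control replicate 1) with 1 array left out; 0 probe sets passed with the stricter filter, and 3 genes of the wider lists with array weights. No partner passed under any of 17 alternatives. The sign of small log2 differences turned as follows. With array weights it turned for Anln (−0.035), Aurkb (−0.012), Myh9 (−0.047), Plk1 (0.043) and Rhoa (−0.0026). With the stricter filter it turned for Ect2 (0.10), Kif14 (0.24), Plk1 (0.065), Racgap1 (0.046), Shc1 (−0.034) and Top2a (−0.0096). With the mean it turned for Ect2 (0.076), Kif14 (0.10), Racgap1 (0.024) and Shc1 (−0.0070). With centred probe sets it turned for Ect2 (0.021), Kif14 (0.078), Plk1 (0.0091) and Racgap1 (0.082). With centred probe sets and no filter it turned for Ect2 (0.027), Kif14 (0.12), Racgap1 (0.15) and Shcbp1l (0.16). Without the filter it turned for Kif14 (0.13), Rhoa (−0.053) and Shcbp1l (0.21). With quantile normalization it turned for Myh9 (−0.025) and Rhoa (−0.0021). With equal array medians it turned for Myh9 (−0.027). With 1 array left out, log2 differences ran from −0.14 to 0.21 for Anln, from −0.060 to 0.22 for Cit, from −0.0028 to 0.31 for Incenp, from −0.15 to 0.031 for Kif14, from −0.091 to 0.21 for Kif20a, from −0.012 to 0.21 for Kif23, from −0.070 to 0.43 for Kif4, from −0.18 to 0.019 for Mybl2, from −0.020 to 0.039 for Myh9, from −0.085 to 0.073 for Plk1, from −0.10 to 0.085 for Racgap1, from −0.019 to 0.10 for Rhoa and from −0.25 to 0.023 for Shcbp1l. With the replicate number as a block, 5 of 8 partners were higher with a median of 0.068 log2 and 0 genes passed in limma, so the block changed no call. The cause of the other shifts was not tested.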
